A study of Erythranthe guttata with 80 samples.

Results

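Among the 28140 genes counted in yellow monkeyflower (Mimulus guttatus), 76 were at least 4-fold higher in inland annual than in coastal perennial plants in leaves at both the 2leaf and the 4leaf stage, yet within 2-fold between the lines in floral buds. The members were chosen from these same counts. A gene was kept where the ratio of the Inland to the Coast group mean, with 0.5 CPM added to each mean, was at least 4 at 2leaf and at 4leaf, where both Inland leaf means reached 5 CPM, and where the bud ratio lay from 0.5 to 2. CPM is a gene's count scaled to a fixed library size, and for this choice the library total was used. Genes that the study names by identifier were left out, and 7 genes that met every threshold were removed for that reason.

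RNA of 80 plants was counted by 3′-Tag-Seq, an assay that reads each transcript at its 3′ end, with 10 plants in each of 8 groups and 1 tissue taken per plant. The Inland groups were genotype LMC-17, an annual accession, at 2leaf, 4leaf and bud. The Coast groups were genotype SWB-4, a perennial accession, at 2leaf, 4leaf, 6leaf, 8leaf and bud, since coastal plants make more leaf pairs before they flower. Seed of each accession came from self-fertilised families, all plants shared the same growth conditions with no treatment, and plants are therefore replicates of a line. Each ecotype was 1 line, so the effect of ecotype and that of line cannot be told apart. In whole leaves and whole buds, fewer cells of a type and less RNA per cell also cannot be told apart.

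Leaves and floral buds use different parts of the genome. A leaf is built for photosynthesis and is often where defence and other compounds accumulate, whereas a bud holds several floral organs. The study took its buds from plants close to flower opening. Inland annual monkeyflowers complete their life before summer drought and flower after few leaves. Coastal perennials live in moist habitats exposed to salt spray and invest in vegetative growth first. A gene can therefore differ between the ecotypes in leaves while both lines hold it at a like level in buds, and the counts can then show whether the inland plants gave up a high leaf level, the coastal plants gained one, or both. The 76 identifiers were not paired with gene names or functions here, so the genes are described by their levels.

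Levels are given below as CPM scaled by TMM over the 80 libraries, and a log2 fold change (LFC) is given with its standard error as LFC ± SE. Genes were called at a Benjamini-Hochberg adjusted p under 0.05 over all genes tested with edgeR. Library totals ran from 1256776 to 6090402 counts. Libraries were spread over 4 pools, each with 2 or 3 plants of every group. The TMM factors had a median of 1.42 in bud libraries and 0.885 in leaf libraries, so bud levels are lower on this scale than when divided by library totals alone. The labelled tissues were checked with genes the study names. The summed level of 7 photosynthesis and chloroplast genes had a median of 388 CPM in Inland buds and 629 CPM in Coast buds, and of 3642 to 6114 CPM in the 6 leaf groups. The summed level of 5 genes that it lists for a co-expression module linked to the change between leaf and bud, among them pectin genes, had a median of 2231 CPM in Inland buds and 649 CPM in Coast buds, and of 4.57 to 10.8 CPM in the leaf groups. Every bud library lay below every leaf library for the first list and above it for the second.

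The thresholds cut through a continuous range. At 2leaf the nearest members had ratios of 4.09 (Migut.F00067) and 4.14 (Migut.N00369), and the nearest genes left outside had 3.86 (Migut.J00246) and 3.76 (Migut.B00131). At 4leaf the members Migut.D01163 and Migut.H00905 had 4.07 and 4.11, against 3.98 for Migut.C01110 and 3.80 for Migut.F00509 outside. By Inland 2leaf level, Migut.A00349 (5.09 CPM) and Migut.F00067 (5.11 CPM) were inside, and Migut.G01094 (4.96 CPM) and Migut.M01918 (4.56 CPM) were outside. By Inland 4leaf level, Migut.G00293 (5.81 CPM) and Migut.H00203 (6.13 CPM) were inside, and Migut.H02097 (2.60 CPM) was the 1 gene outside by that limit. In buds, Migut.D00687 (0.501) and Migut.H01355 (0.508) lay just above the lower bound, with Migut.K00768 (0.498) and Migut.N01499 (0.453) below it. At the upper bound, Migut.H00653 (1.96) and Migut.N02094 (1.95) were members, while Migut.E00382 (2.08) and Migut.B00223 (2.11) were not. Of the 280 genes that met both leaf thresholds, 186 had a bud ratio above 2, 11 had one below 0.5, and 83 had one between, of which 76 are the members. Most genes past the leaf thresholds thus kept a ratio above 2 in buds.

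Inland leaf levels of the members covered a wide range. Group means of the 76 genes ran from 6.92 to 912 CPM in Inland 2leaf plants and from 0.0262 to 134 CPM in Coast 2leaf plants, with medians of 25.5 and 1.52 CPM. At 4leaf the medians of the group means were 29.9 CPM in Inland and 2.29 CPM in Coast plants. In buds they were 7.91 CPM in Inland and 7.53 CPM in Coast plants. On the TMM scale, with 0.5 CPM added to each mean, the median ratio of Inland to Coast was 7.58 at 2leaf, 8.60 at 4leaf and 1.02 in buds. These contrasts chose the members, so they are given without a test.

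The leaf difference was complete plant by plant for most members. At 2leaf, 67 of the 76 genes had all 10 Inland plants above all 10 Coast plants, against 4.22% of all 28140 genes. At 4leaf this held for 63 members, against 4.38% of all genes. In buds it held for 1 member, Migut.H00653, against 5.28% of all genes. The rule fixed this contrast between leaves and buds, and nothing is read from it beyond the count.

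**Figure D1:**
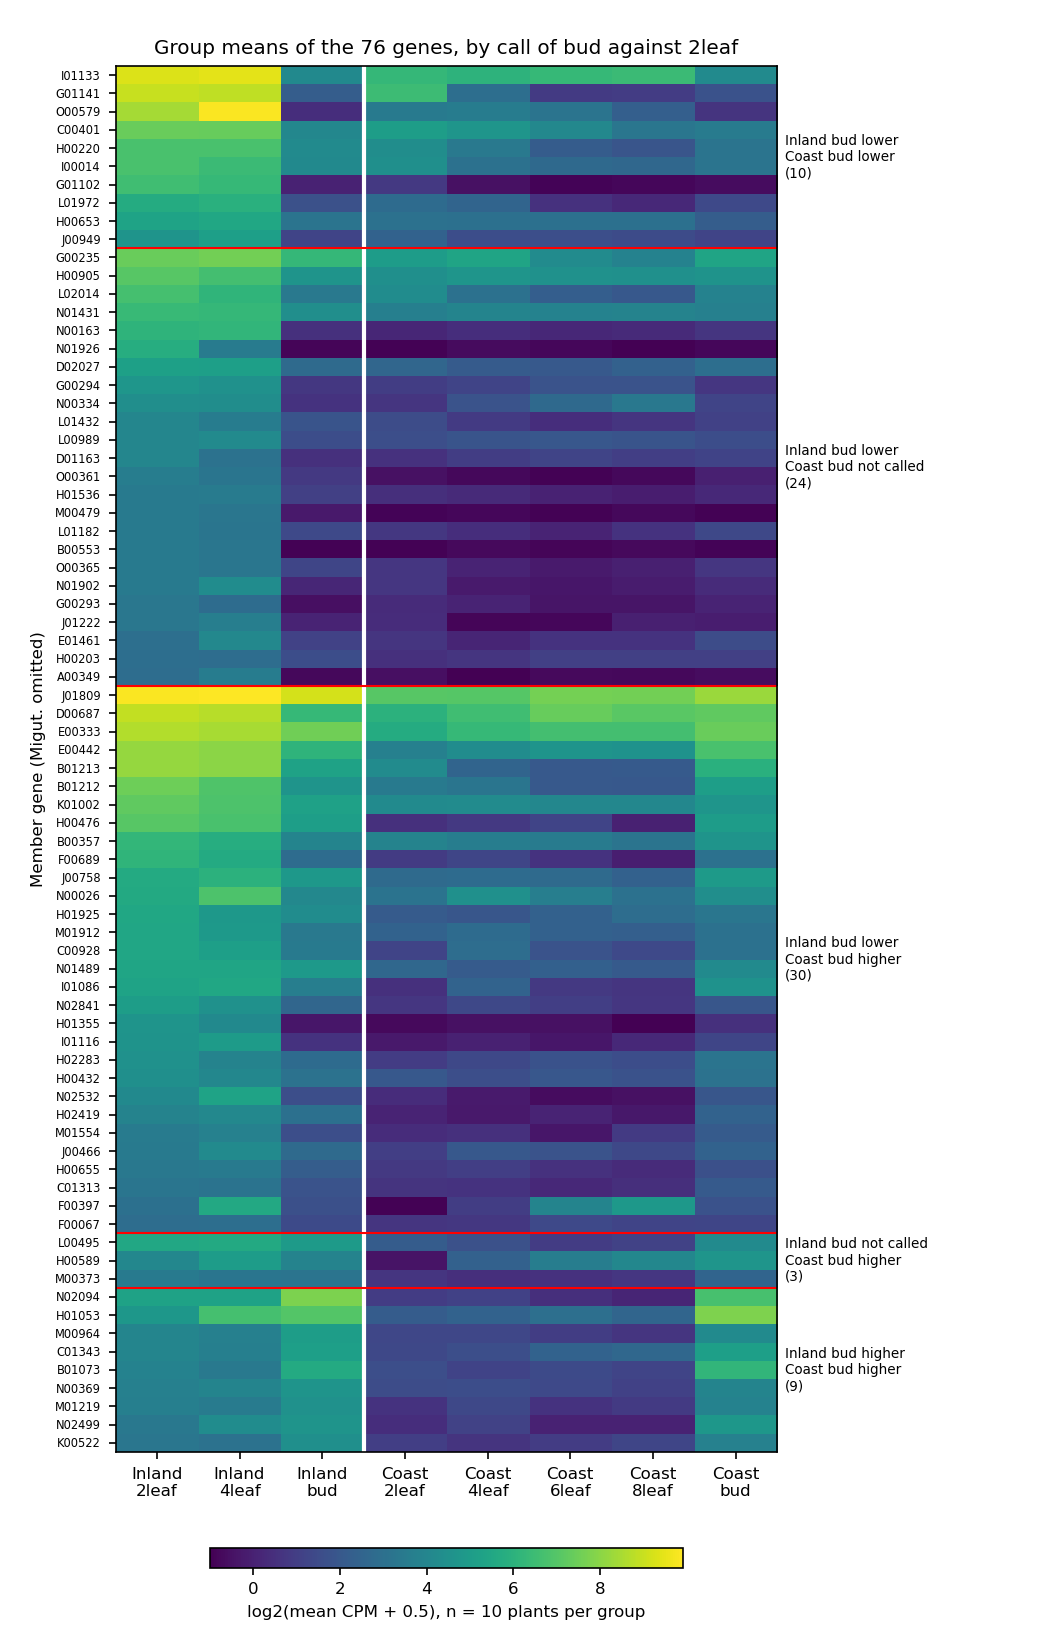
Heat map of the group means of the 76 genes, as log2(mean CPM + 0.5) with 10 plants per group; columns are the 3 Inland and the 5 Coast groups, and rows are grouped by whether the bud was called higher or lower than 2leaf in each ecotype. The 2 Inland leaf columns are brighter than the Coast leaf columns in nearly every row, and the 2 bud columns resemble each other whether the bud level is high or low.

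The members reached equal bud levels by different routes. Against 2leaf, Inland buds were called lower for 64 of the 76 genes, higher for 9 and neither for 3, where 32.1% of all genes tested were lower and 41.7% higher. Coast buds were called lower for 10, higher for 42 and neither for 24, where 28.6% of genes were lower and 39.1% higher. The members' median LFC of bud minus 2leaf was -2.16 in Inland and 1.09 in Coast plants, beside 0.16 and 0.15 over all genes tested. Against 4leaf, Inland buds were lower for 66 members and higher for 7, where 31.3% and 37.9% of genes were, and Coast buds were lower for 6 and higher for 42, where 30.4% and 38% of genes were. The rule used the leaf and bud means of both ecotypes, so these counts describe the members, and nothing about them is read from the shares. All 76 members passed the filter on low counts in this fit, and each had to reach 5 CPM in Inland leaves to be a member.

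By both calls together, 30 members were lower in Inland buds and higher in Coast buds than at 2leaf, so the lines met from both sides. A further 24 were lower in Inland buds with no call in Coast plants. Buds were lower in both ecotypes for 10 members and higher in both for 9. The remaining 3 members (Migut.H00589, Migut.L00495 and Migut.M00373) were higher in Coast buds with no call in Inland plants. Taken against 4leaf, the same 5 patterns held 32, 28, 6, 7 and 3 members. Within the 4 library pools, 62 of the 64 genes lower and 9 of the 9 higher in Inland buds had that direction in every pool. In Coast buds it was 41 of the 42 higher and 9 of the 10 lower.

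Scaling matters for these counts. With library size alone, the median LFC of bud minus 2leaf over all genes tested was 1.01 in Inland and 1.005 in Coast plants. The split in Coast plants became 55 members higher and 5 lower. Shares of all genes called with that scaling are not given here, so nothing about the members is read from its counts. In Inland plants the counts became 12 higher and 50 lower. There 5 genes called lower in Inland buds (Migut.H02419, Migut.J00466, Migut.J00758, Migut.J01809 and Migut.N01489) had the other sign. The remaining calls of bud against 2leaf kept their sign in both ecotypes.

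**Figure D2:**
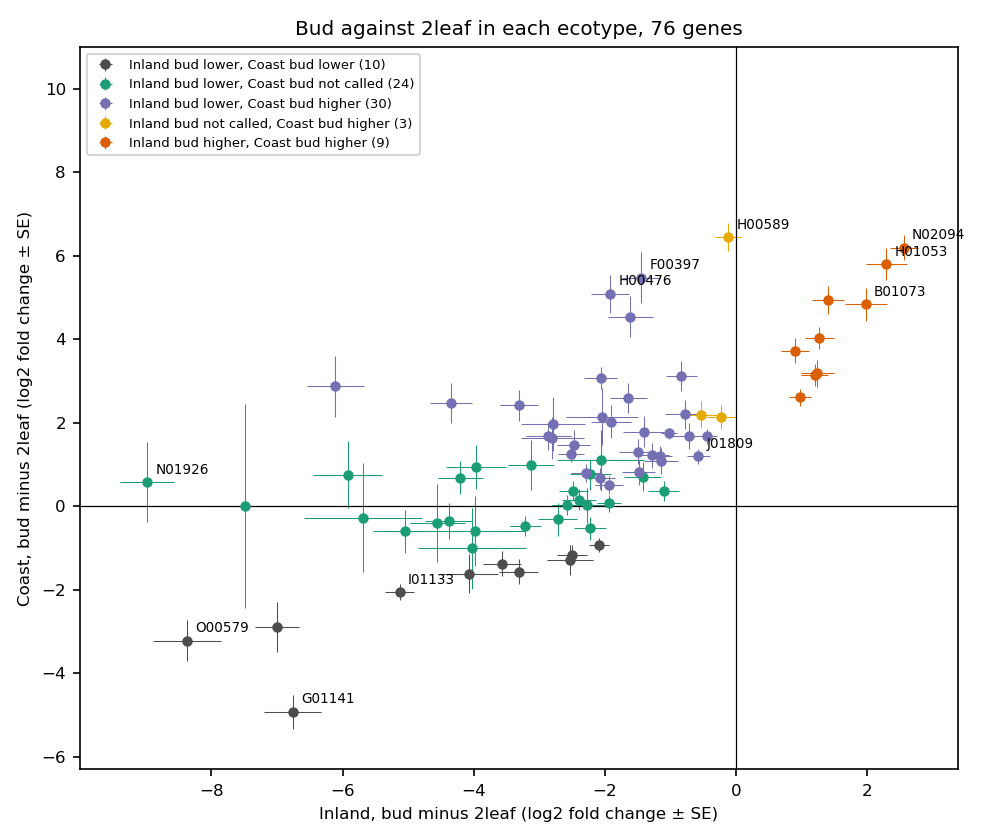
Scatter of the LFC of bud minus 2leaf in Inland plants (x axis) and Coast plants (y axis) for the 76 genes, with SE bars and colour by the pair of calls. The largest group, of 30 genes, lies at the upper left, lower in Inland and higher in Coast buds, and 9 genes lie at the upper right.

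Migut.J01809 was the most abundant member in Inland leaves and in the buds of both lines. In Inland plants its lowest, median and highest levels were 666, 945 and 1113 CPM at 2leaf, 513, 992 and 1345 CPM at 4leaf, and 461, 526 and 860 CPM in buds. In Coast plants they were 199, 278 and 557 CPM in buds and 72.2, 102 and 241 CPM at 2leaf. All Inland leaf plants lay above all Coast plants of the same stage, and the 2 bud groups overlapped. Bud minus 2leaf was -0.58 ± 0.18 in Inland and 1.20 ± 0.18 in Coast plants. With library size alone the Inland value was 0.29, so its direction rests on the scaling. In buds the gene was still higher in Inland plants, by 0.99 ± 0.18.

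Migut.E00333 and Migut.E00442 met from both sides. Migut.E00333 had 112, 182 and 237 CPM (lowest, median, highest) in Inland buds and 326, 352 and 549 CPM in Inland 2leaf plants. Its Coast plants had 138, 158 and 219 CPM in buds and 34.6, 49.9 and 69.7 CPM at 2leaf. The bud groups overlapped almost wholly, and the difference between them was 0.17 ± 0.12. Migut.E00442 averaged 66.8 ± 15.5 CPM in Inland buds, 293 ± 66.2 CPM in Inland 2leaf plants, 109 ± 17.5 CPM in Coast buds and 12.9 ± 8.11 CPM in Coast 2leaf plants (SD, n = 10 each). Every Coast bud plant lay above every Coast leaf plant and, by a narrow margin, above every Inland bud plant (Inland minus Coast -0.65 ± 0.24).

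Migut.D00687, the member closest to the lower bud bound, averaged 79.4 ± 24.5 CPM in buds and 475 ± 77.5 CPM at 2leaf in Inland plants. Its Coast plants averaged 152 CPM in buds (90.9 to 274 CPM) and 63.7 CPM at 2leaf (38.3 to 98.9 CPM). The bud difference of -0.88 ± 0.19 was the opposite of the leaf difference, although bud plants of the lines overlapped.

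Migut.H00476 was one of the 4 members with the largest 2leaf ratio outside the most abundant ones. Inland plants had 8.74, 29.8 and 65.4 CPM in buds and 22.5, 132 and 202 CPM at 2leaf. Coast plants had 13.0, 34.1 and 49.3 CPM in buds and 0.278, 0.785 and 2.09 CPM at 2leaf. No Coast leaf plant passed 8.33 CPM, and Coast buds fell inside the range of Inland buds, with a difference of 0.11 ± 0.29.

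In contrast, the buds of both lines were nearly empty for some of the most abundant leaf genes. Migut.O00579 had 0, 0.520 and 2.54 CPM in Inland buds, where 3 of 10 plants had no count, and 306, 714 and 2065 CPM in Inland 4leaf plants. In Coast plants it had 0.185, 0.829 and 2.88 CPM in buds and 2.23, 10.1 and 24.9 CPM at 4leaf. Bud minus 4leaf was -9.77 ± 0.54 in Inland and -3.42 ± 0.48 in Coast plants, and no bud plant reached the lowest Inland leaf plant.

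Migut.I01133 kept a higher bud level. It averaged 642 ± 174 CPM at 2leaf, 708 ± 224 CPM at 4leaf and 17.3 ± 6.49 CPM in buds of Inland plants. In Coast plants it averaged 18.1 ± 4.94 CPM in buds and 75.7 ± 24.8 CPM at 2leaf. The bud groups could not be separated, with a difference of 0.01 ± 0.20 and a 95% interval from -0.39 to 0.40. The ratio of Inland to Coast means, with 0.5 CPM added, was 8.43 at 2leaf.

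Some members were near the detection limit outside Inland leaves. Migut.N01926 had 2.01, 11.8 and 18.3 CPM in Inland 4leaf plants and 25.5, 58.4 and 66.1 CPM in Inland 2leaf plants. It had 3 counts over the 10 Inland bud plants and 4 over the 10 Coast bud plants. At 2leaf it had 1421 counts over the Inland plants and 1 count over the Coast plants. Equal bud levels here mean that both buds held almost no counts, and 9 of the 76 members had both bud means under 1 CPM. Migut.N00163 averaged 0.933 ± 0.822 CPM in Inland and 1.10 ± 0.551 CPM in Coast buds, and 67.5 ± 67.4 CPM in Inland and 0.625 ± 0.443 CPM in Coast 2leaf plants.

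Migut.N02094 and Migut.H01053 are among the 9 members higher in the buds of both lines. Migut.N02094 had 160, 215 and 278 CPM in Inland buds and 24, 37.9 and 55.6 CPM in Inland 2leaf plants. In Coast plants it had 53.8, 99.9 and 186 CPM in buds and 0, 1.22 and 3.17 CPM at 2leaf. Bud minus 2leaf was 2.55 ± 0.21 in Inland and 6.19 ± 0.29 in Coast plants, and buds lay above all leaves in each line. The bud groups overlapped, with Inland higher by 1.08 ± 0.20.

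Migut.H01053 averaged 26.8 ± 12.6 CPM at 2leaf, 103 ± 44 CPM at 4leaf and 127 ± 112 CPM in buds of Inland plants. In Coast plants it averaged 222 ± 65.7 CPM in buds and 3.96 ± 1.43 CPM at 2leaf. Inland buds were spread from 29.4 to 372 CPM, wider than Inland leaves, and no call was made between Inland bud and 4leaf (0.35 ± 0.29). Migut.B01073 varied little in buds, at 50.5 ± 6.99 CPM in Inland and 71.1 ± 12.4 CPM in Coast plants, against 13.6 ± 13.5 CPM in Inland and 2.55 ± 0.922 CPM in Coast 2leaf plants. The other 6 members higher in both buds were Migut.C01343, Migut.K00522, Migut.M00964, Migut.M01219, Migut.N00369 and Migut.N02499.

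**Figure D3:**
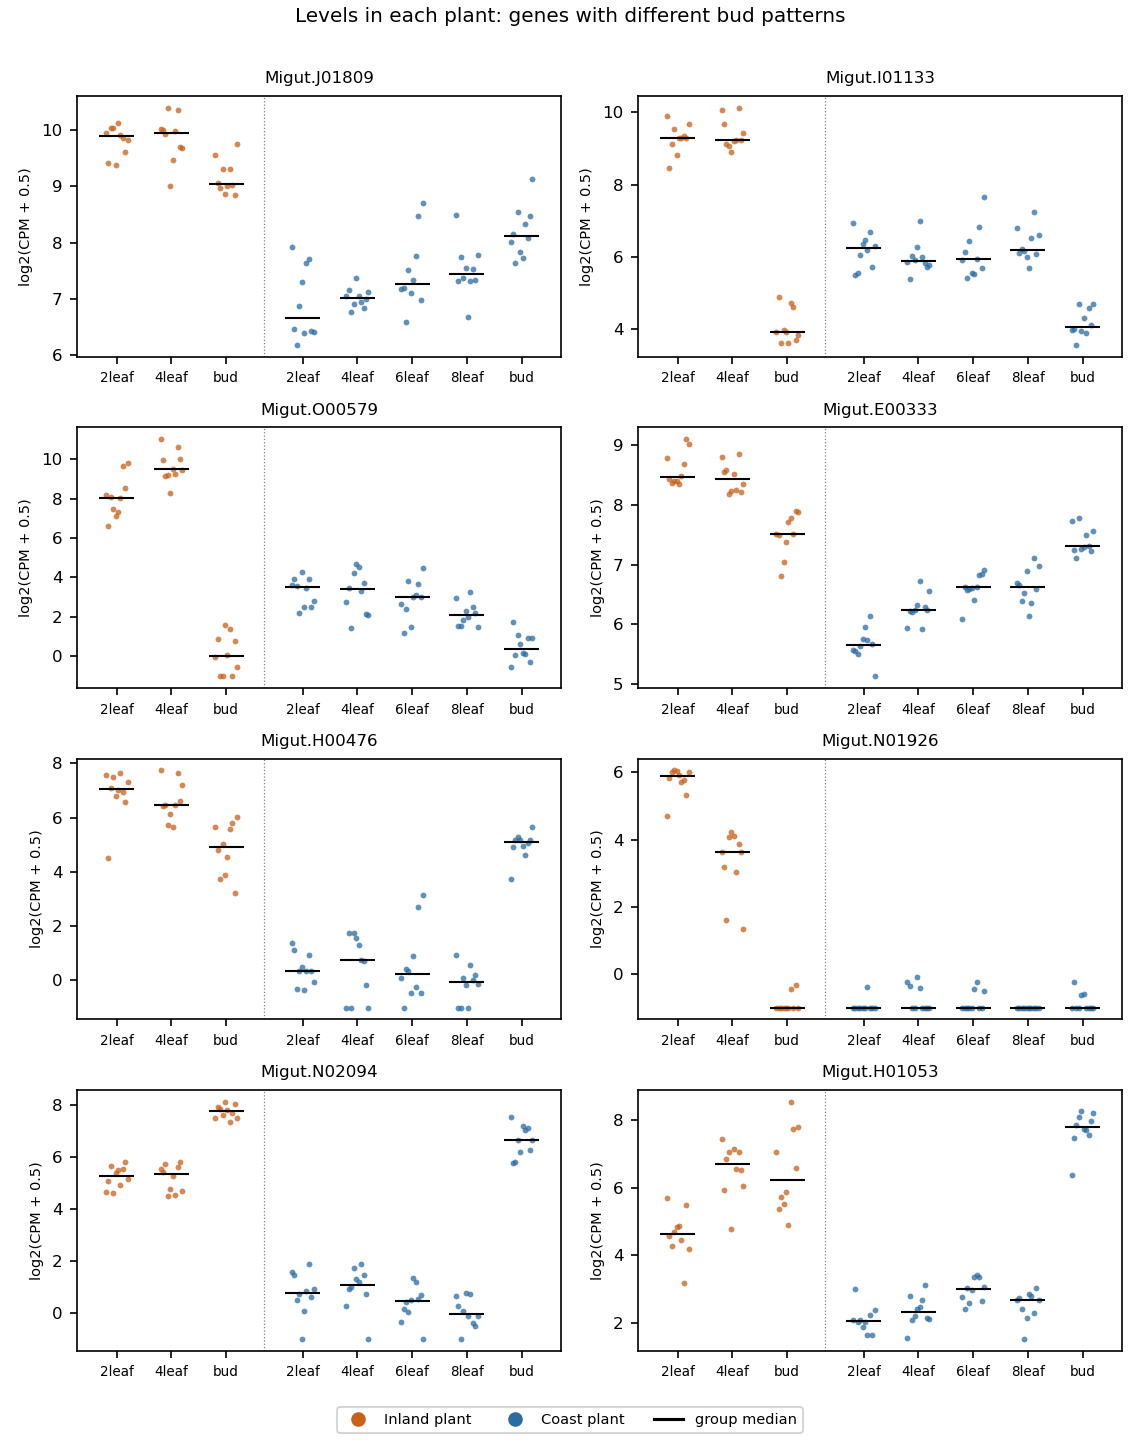
Levels in each plant as log2(CPM + 0.5) for 8 genes across the 3 Inland groups (left of the dotted line) and the 5 Coast groups; the bar is the group median. Migut.O00579 and Migut.N01926 are near 0 CPM in both buds, whereas Migut.N02094 and Migut.H01053 are highest in Coast buds among Coast groups.

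Equal in buds did not mean the same level in every case. The difference of Inland minus Coast buds was called for 33 members, higher in Inland buds for 26 and lower for 7, where 32.7% of all genes tested were higher and 31.4% lower. The rule bounded this ratio, so the calls are a description. Of the 43 members not called, 22 had a 95% interval that lay between -1 and 1 on the log2 scale, that is within 2-fold either way. The intervals of the other 21 reached past that limit, so they leave room for a 2-fold difference in buds. The same holds for the 33 called members, as none of their intervals lay wholly between -1 and 1. Only the interval of Migut.M00479 lay wholly above 1, and it rested on 19 counts in Inland and 1 count in Coast buds. Among the 73 members with more than 3 counts in both bud groups, the LFC ran from -1.44 (Migut.H01355) to 2.00 (Migut.G01102).

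**Figure D4:**
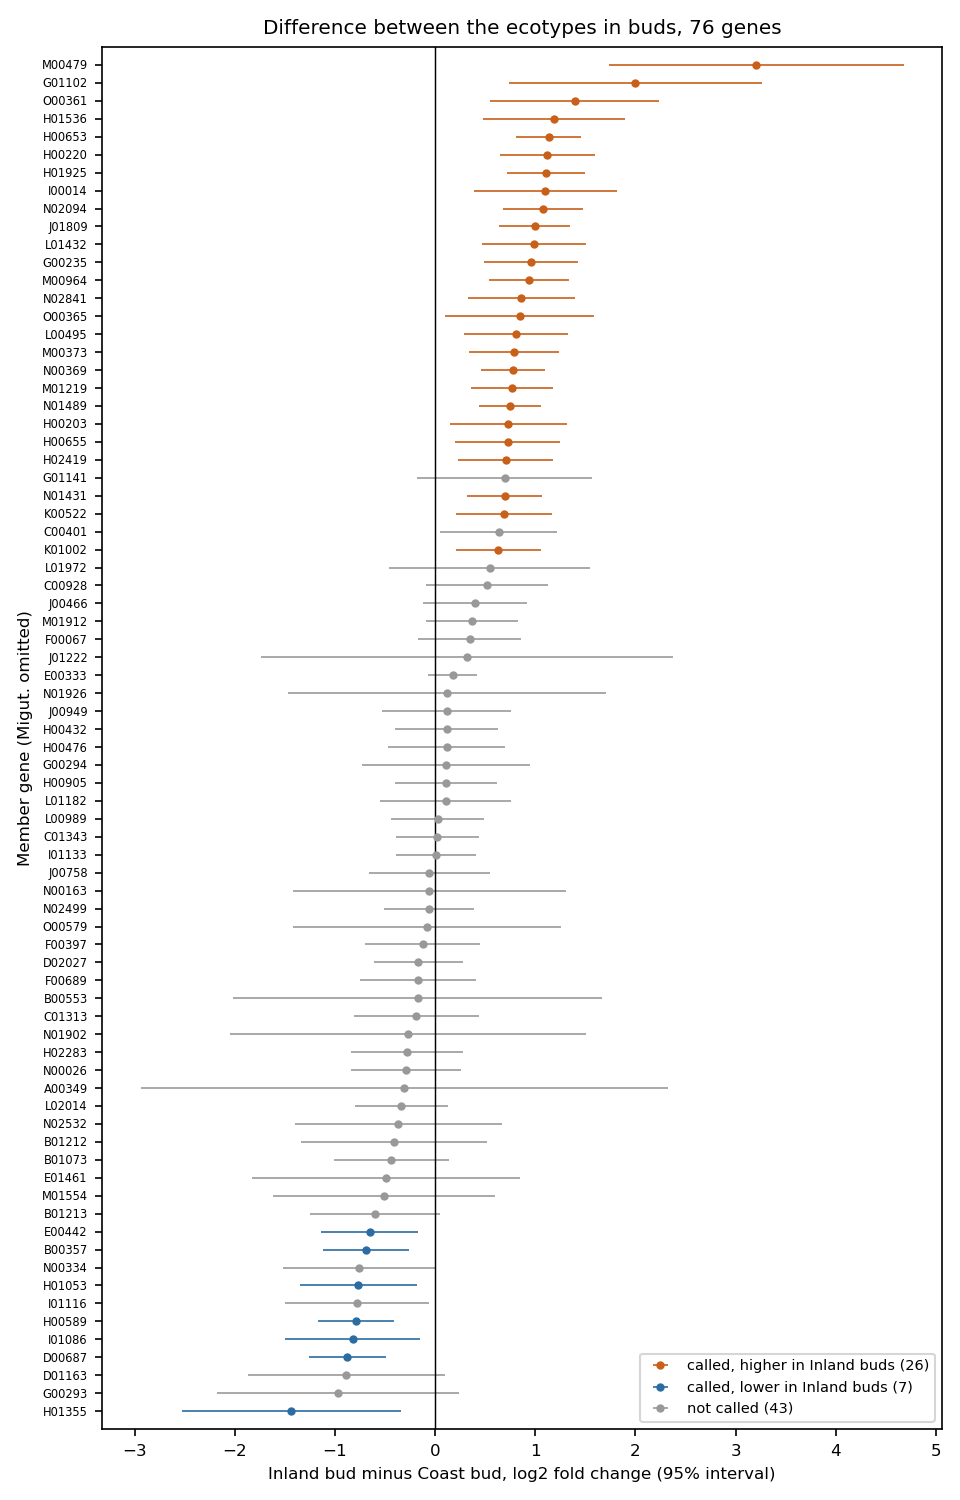
Difference between Inland and Coast buds for the 76 genes, as LFC with 95% intervals; the 26 genes called higher in Inland buds, the 7 called lower and the 43 not called are coloured apart. Of the 43 genes not called, 22 have an interval within -1 and 1.

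Changes between 2leaf and 4leaf are also a description, because the rule used both stages of both lines and left out genes that met a threshold at only 1 of them. In Inland plants 8 members rose and 3 fell, where 8.81% of genes tested were higher and 8.09% lower at 4leaf. With library size alone 10 rose and 1 fell, beside a median LFC over all genes of 0.24. In Coast plants 8 rose and 7 fell, where 4.11% were higher and 5.04% lower. The members' median LFC was -0.09 in Inland and 0.06 in Coast plants, beside 0 over all genes tested in both. Of the 186 genes that kept a bud ratio above 2, 16 rose and 10 fell in Inland plants, and 2 rose and 6 fell in Coast plants. In the fit of coastal libraries given below, 79 of those 186 and 54 of the 76 members passed the filter on low counts.

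Migut.F00397 and Migut.H00589 rose in both lines. Migut.F00397 had 34.7, 46.8 and 57.9 CPM in Inland 4leaf plants and 1.72, 8.27 and 13.0 CPM in Inland 2leaf plants (LFC 2.66 ± 0.25). Its Coast plants had 48 counts over 10 plants at 4leaf and 1 count at 2leaf, a ratio of 41.6 with an exact 95% interval from 7.11 to 1675 that covers counting error only. Migut.H00589 averaged 32.4 ± 8.76 CPM in Inland 4leaf and 16.2 ± 3.64 CPM in Inland 2leaf plants (LFC 1.00 ± 0.20). Its Coast plants averaged 4.71 ± 2.23 CPM at 4leaf and 0.246 ± 0.357 CPM at 2leaf, where 6 of 10 plants had no count (LFC 3.99 ± 0.40).

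The largest changes in Inland leaves besides these were in Migut.N01926, Migut.H01053 and Migut.O00579. Migut.N01926 fell by 2.30 ± 0.23 between 2leaf and 4leaf, and its 4leaf plants all lay below its 2leaf plants. Migut.H01053 rose by 1.94 ± 0.31, and Migut.O00579 by 1.40 ± 0.34. Both overlapped between stages, and Migut.O00579 varied from 95.6 to 893 CPM among 2leaf plants alone.

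In Coast leaves the steepest fall was in Migut.G01141. Its Coast plants had 0.743, 5.69 and 19.0 CPM at 4leaf and 40.7, 73.5 and 179 CPM at 2leaf, with no overlap (LFC -3.64 ± 0.39). Inland plants had 120, 481 and 844 CPM at 4leaf and 227, 468 and 992 CPM at 2leaf, and no change was called (-0.12 ± 0.32). The Inland minus the Coast change was 3.52 ± 0.50. The ratio of Inland to Coast means of this gene, with 0.5 CPM added, was 61.3 at 4leaf and 5.78 at 2leaf.

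The difference between the lines in this change was called for 10 members, again among values the rule used. For 5 the change from 2leaf to 4leaf was higher in Inland plants, and for 5 it was lower, where 3.94% and 2.54% of genes tested were. Besides Migut.G01141, the genes with a higher Inland change were Migut.B01213 (1.67 ± 0.50), Migut.G01102 (2.46 ± 0.71), Migut.H01053 (1.65 ± 0.53) and Migut.J00949 (1.55 ± 0.38). Those with a lower one were Migut.H00589 (-3.00 ± 0.47), Migut.I01086 (-2.27 ± 0.64), Migut.C00928 (-2.18 ± 0.49), Migut.N02841 (-1.42 ± 0.45) and Migut.E00333 (-0.75 ± 0.17). Migut.J00949, Migut.I01086, Migut.C00928 and Migut.N02841 lie outside the rule for named genes and were picked because they were called here.

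The 6leaf and 8leaf plants of the coastal line took no part in choosing the members, while the 2leaf, 4leaf and bud plants they are set against below did. The medians of the members' Coast group means were 1.52 CPM at 2leaf, 2.29 CPM at 4leaf, 2.15 CPM at 6leaf and 1.87 CPM at 8leaf. All 10 Inland 4leaf plants lay above all 10 Coast 8leaf plants for 64 of the 76 members, against 6.1% of all genes. They lay above all Coast 6leaf plants for 60, against 5.88%. The rule chose members for high Inland 4leaf levels, so these counts are a description and nothing is read from the shares. For 46 members every one of the 20 Inland leaf plants lay above every one of the 40 Coast leaf plants, where 1.74% of all genes did, but the Inland plants and the Coast 2leaf and 4leaf plants are those the rule used, so nothing is read from that count. The ratio of the Coast 8leaf to the Inland 4leaf mean, with 0.5 CPM added to each mean, is also given as a description. It was at most 0.25 for 66 members and at least 0.5 for 3.

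Those 3 members were Migut.F00397, Migut.H00589 and Migut.N00334, which climbed through the coastal leaf stages. In Migut.F00397 the Coast group means were 0.0262 CPM at 2leaf, 1.47 at 4leaf, 14.5 at 6leaf, 27.7 at 8leaf and 2.88 CPM in buds. It rose from 4leaf to 6leaf (LFC 3.34 ± 0.47) and was lower in buds than at 8leaf (-3.19 ± 0.38). Inland plants had 7.55 CPM at 2leaf, 47.2 at 4leaf and 2.67 CPM in buds, so in each line the last leaf stage was the highest. Coast 6leaf plants ranged from 0.821 to 37.1 CPM, and overlapped both the 4leaf and the 8leaf plants.

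Migut.N00334 averaged 1.12 ± 0.731 CPM at 2leaf, 2.96 ± 2.05 at 4leaf, 6.18 ± 1.83 at 6leaf, 9.90 ± 1.90 at 8leaf and 1.85 ± 0.988 CPM in buds of Coast plants. The rise between 2leaf and 8leaf was 3.08 ± 0.31, and every 8leaf plant lay above every 2leaf plant. In Inland plants it averaged 20.4 ± 10.1 CPM at 2leaf, 19.8 ± 6.93 at 4leaf and 1.01 ± 0.698 CPM in buds. Migut.H00589 averaged 12.0 ± 3.25 CPM at 6leaf, 16.2 ± 3.16 at 8leaf and 25.6 ± 6.71 CPM in Coast buds, so unlike the other 2 it was still higher in buds than at 8leaf (0.69 ± 0.19).

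Only 54 of the 76 members passed the filter on low counts in the fit of the 50 coastal libraries, and the other 22 were not tested there. From 4leaf to 6leaf 7 of the 54 rose and 9 fell, where 6.17% of genes tested were higher and 8.54% lower. From 2leaf to 8leaf 8 rose and 16 fell, where 22.3% were higher and 22% lower. With library size alone these 2 comparisons gave 10 higher and 8 lower, and 19 higher and 11 lower. The median LFC over all genes tested was then 0.20 and 0.46, so all genes shifted upward with that scaling. Over all genes, the group means rose at each step from 2leaf to 8leaf in 16.4% of genes tested and in 6 of the 76 members, or 7.89%, and fell at each step in 15.5% of genes and 9 members.

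Among the named genes, falls along the coastal leaves were found in Migut.G01141 (8leaf minus 2leaf -5.84 ± 0.41), Migut.B01213 (-2.26 ± 0.41) and Migut.C00401 (-1.83 ± 0.27). Migut.B01212 (-1.59 ± 0.51) and Migut.O00579 (-1.20 ± 0.38) fell as well. Besides Migut.F00397, Migut.H00589 and Migut.N00334, rises were found in Migut.D00687 (1.12 ± 0.25) and Migut.E00333 (0.98 ± 0.12). Migut.E00442 (0.82 ± 0.34) and Migut.H01925 (0.81 ± 0.23) also rose. In Migut.E00333 every 8leaf plant, from 70.1 CPM up, lay above every 2leaf plant. With library size alone, each of these genes kept its direction.

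**Figure D5:**
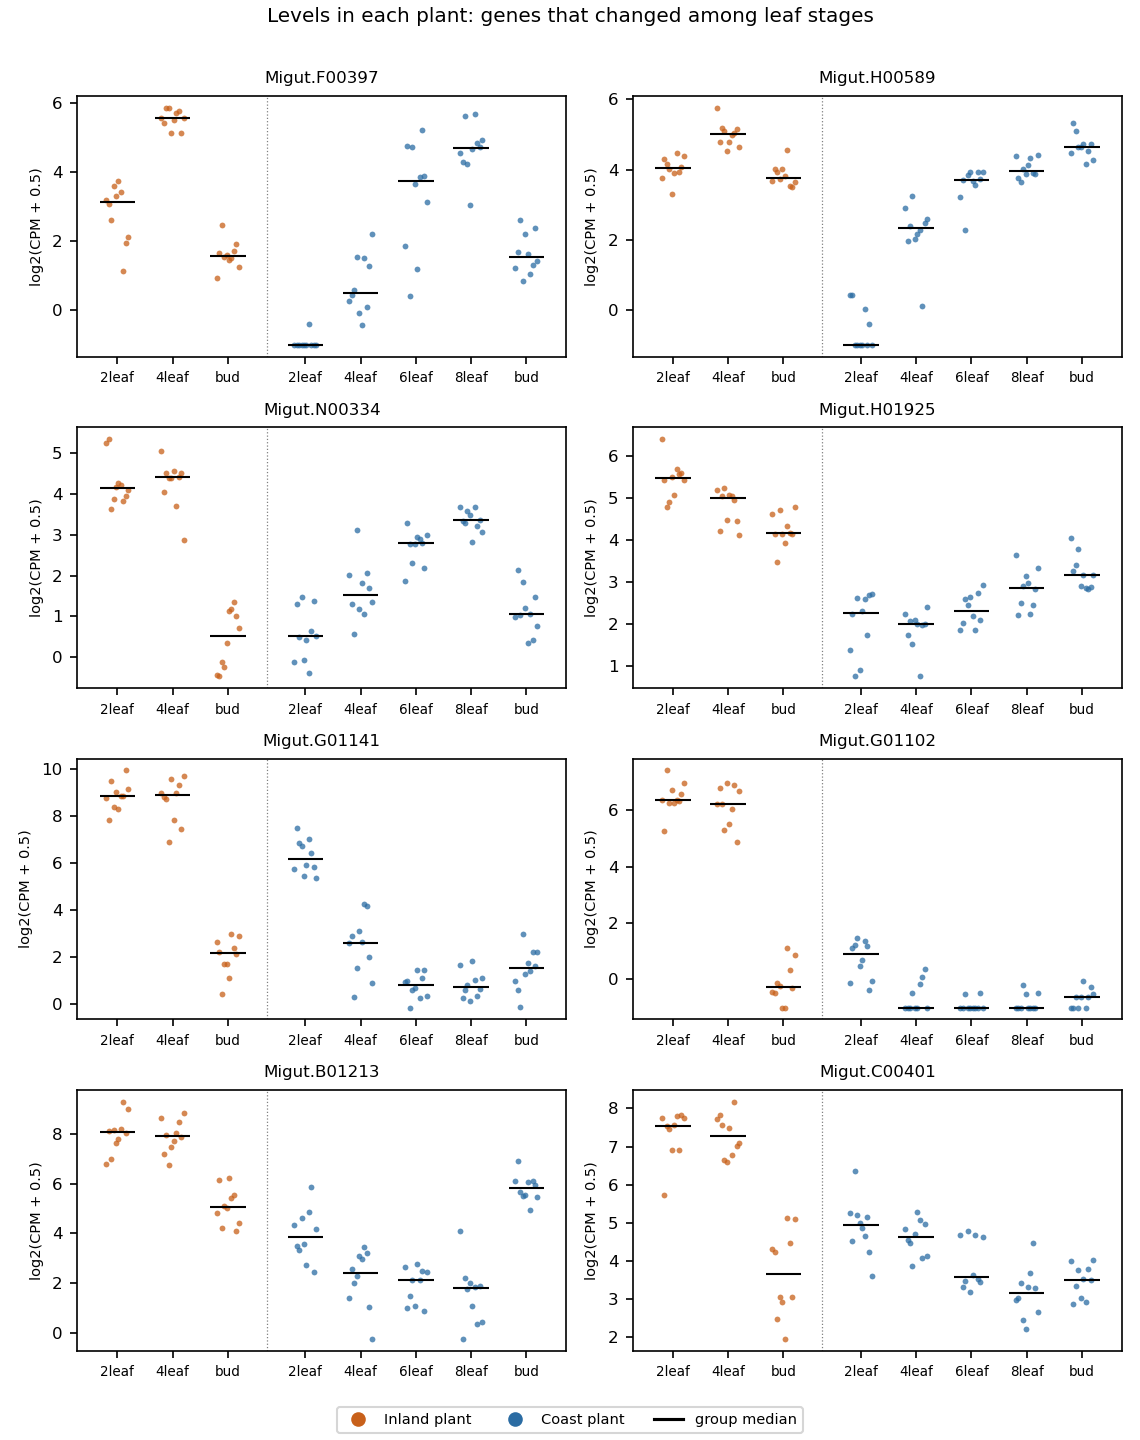
Levels in each plant as log2(CPM + 0.5) for 8 genes that changed among leaf stages, for the 3 Inland groups (left of the dotted line) and the 5 Coast groups; the bar is the group median. Migut.F00397, Migut.H00589 and Migut.N00334 climb from 2leaf to 8leaf in Coast plants, whereas Migut.G01141 and Migut.B01213 drop after 2leaf.

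Between 6leaf and 8leaf, neither of which the rule used, no member was called by edgeR, where 0.676% of genes tested were called, 0.444% higher and 0.232% lower at 8leaf. Unadjusted p-values under 0.05 were found for 9 of the 54 members, 4 higher and 5 lower, and the lowest adjusted p was 0.159. DESeq2 also called 0 members (9 at an unadjusted p under 0.05), where it called 174 of all genes tested. With voom and limma 1 member was called, Migut.F00397 (LFC 1.54, adjusted p = 0.026), where 103 of all genes were. The share of all genes at that unadjusted limit is not given here, so nothing is read from the counts of 9. The median LFC of the members was -0.14, beside 0.01 over all genes tested. By edgeR Migut.F00397 had 0.95 ± 0.34 (adjusted p = 0.237), Migut.N00334 had 0.69 ± 0.24 (adjusted p = 0.205), Migut.H01925 had 0.56 ± 0.22 (adjusted p = 0.297) and Migut.H00589 had 0.45 ± 0.20 (adjusted p = 0.380). Migut.O00579 (-0.94 ± 0.37, adjusted p = 0.300) and Migut.C00401 (-0.82 ± 0.27, adjusted p = 0.181) had the lowest values among members with at least 10 counts on average in one of these groups.

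Coast buds stood apart from the last coastal leaves. Of the 54 members tested, 38 were higher in Coast buds than at 8leaf and 6 lower, where 38.4% of genes tested were higher and 35.5% lower, and the median LFC was 1.53 beside 0.06 over all genes. The Coast bud group entered the rule and the 8leaf group did not, and a member with low Coast leaves passed this filter partly through its buds. In 36 of the 38 and all 6 of the 6 the direction held in every library pool. The 6 lower genes were Migut.F00397, Migut.G00294, Migut.H00653, Migut.I01133, Migut.N00334 and Migut.O00579.

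Of the 16 members lower at 8leaf than at 2leaf, 11 were higher in buds than at 8leaf, 1 was lower and 4 were not called. Of the 30 with no call between those leaf stages, 23 were higher in buds, 3 lower and 4 not called, and of the 8 higher at 8leaf, 4 were higher, 2 lower and 2 not called. The 8leaf plants enter both comparisons and the filter favoured members with high Coast buds, so these counts are a description. Migut.B01213, for example, had 4.96, 14.3 and 57.4 CPM at 2leaf, 0.345, 3.01 and 16.7 CPM at 8leaf, and 30.0, 55.7 and 119 CPM in Coast buds. Its buds lay above all of its 8leaf plants and overlapped its 2leaf plants (bud minus 8leaf 3.96 ± 0.41).

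Reads of both lines were aligned to 1 reference genome, and whether mapping differed between the lines was not tested. In Coast buds 65 of the 76 members averaged at least 1 CPM and 40 at least 5 CPM, levels that the rule bounded through the bud ratio. All 10 Coast bud plants lay above all 40 Coast leaf plants for 19 members, where this held for 7.48% of genes. All 10 Inland bud plants lay above all 40 Coast leaf plants for 16 members, where 11.4% of genes did. Buds and the early leaf stages entered the rule, so these counts are given without a reading.

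Plants of a group differed more in some members than others. Among members averaging at least 5 CPM, the median coefficient of variation over plants was 35.3% at Inland 2leaf, 41.7% at Inland 4leaf and 31.1% in Inland buds. In Inland 4leaf plants it ran from 15.3% to 167%, with the highest value in Migut.E01461. The summed level of all members was 6672 ± 1218 CPM in Inland 2leaf, 7084 ± 1916 in Inland 4leaf and 2105 ± 362 CPM in Inland buds. In Coast plants it was 770 ± 172 CPM at 2leaf, 722 ± 136 at 4leaf, 836 ± 338 at 6leaf, 800 ± 161 at 8leaf and 1836 ± 222 CPM in buds. The rule bounded the ratios in leaves and buds, so the near bud sums and the distant leaf sums are a description.

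Single plants moved many members at once. Inland 4leaf plant 4 held the lowest value of the group for 30 of the 76 members, as it did for 25.2% of the genes compared, and Inland 2leaf plant 2 did so for 29 members, against 18.5% of genes. Among Coast 6leaf plants the summed level was 907 to 1576 CPM in the 3 plants of library pool 4, and 541 to 825 CPM in the 7 plants of the other pools. The part of pool in the 6leaf spread was not tested, and a fit with pool as a term left each 6leaf against 4leaf count of calls within 1.5 times.

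Close identifiers occurred in 4 pairs. Migut.B01212 and Migut.B01213, consecutive numbers, had 24.4 and 38.1 CPM in Inland buds, 178 and 290 CPM in Inland 2leaf plants, 33.9 and 59.9 CPM in Coast buds and 10.9 and 18.9 CPM in Coast 2leaf plants. In Coast 4leaf plants Migut.B01212 averaged 9.00 CPM and Migut.B01213 5.15 CPM, and 4leaf minus 2leaf was -0.24 ± 0.53 (not called) and -1.85 ± 0.39 (called lower). Migut.G00293 and Migut.G00294 averaged 0.181 and 1.19 CPM in Inland buds and 9.61 and 26.2 CPM in Inland 2leaf plants. Migut.H00653 and Migut.H00655 averaged 39 and 9.83 CPM in Inland 2leaf plants, and Migut.O00361 and Migut.O00365 had 11.9 and 10.5 CPM there. Whether reads are split between similar copies was not tested, so the separate levels of such pairs are uncertain. By the letter of the identifier, 14 of the 76 members (18.4%) carried H, beside 9.88% of the genes tested and 10.7% of the 280 genes past the leaf thresholds. H is given because it had the highest share of members of all letters. Other letters were rarer among members, such as D with 3.95% beside 9.72% of the genes tested, so nothing is read from the share of H.

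The 7 genes left out for being named by the study had levels of the same kind. Migut.D02345 averaged 12.1 CPM in Inland and 21.2 CPM in Coast buds, and 585 CPM in Inland and 1.07 CPM in Coast 2leaf plants. Migut.B01912 was almost empty in both buds, at 1.33 CPM in Inland and 0.476 CPM in Coast plants, and averaged 28.4 CPM in Inland and 0.799 CPM in Coast 2leaf plants. Migut.D00926 stayed high in buds, at 58.7 CPM in Inland and 31.3 CPM in Coast plants. The others were Migut.D01265, Migut.I00994, Migut.H01552 and Migut.N00310. Of all 107 genes the study names, 15 met the leaf thresholds, beside 280 of all 28140 genes. The study names many of its genes because they differed between the ecotypes, so nothing is read from that count.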

How the data were processed

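RNA of 80 plants in 8 groups was analysed, with groups, plant numbers and library pools from the sample labels. The authors ran FastQC and Cutadapt, mapped the trimmed reads by BWA-MEM and SAMtools against version 2.0 of the genome, and obtained gene counts from HTSeq 0.6.1. The deposited values are counts, whole numbers with no normalisation, and all 80 count columns were mapped to a sample.

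Tests used edgeR 4.0.16 in R 4.3.3, namely its quasi-likelihood F test after TMM scaling. Genes with low counts were removed by filterByExpr (count of 10, total of 15). A fit of 60 libraries at 2leaf, 4leaf and bud, with a mean for each genotype and stage, tested 16735 genes, and a fit of 50 coastal libraries tested 15976. The threshold was a Benjamini-Hochberg adjusted p of 0.05 over all genes tested, and the SE was derived from the LFC and its F statistic. The script was tested on simulated data. Levels printed are CPM scaled by TMM over 80 libraries, except for the choice of members and the values beside each threshold, which use library totals.

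Members, lists and tests were chosen with earlier results of these data known. Named genes are the 8 members highest in Inland leaves, the next 4 by 2leaf ratio, the 4 highest in buds, the 4 with the largest rise in Coast buds, the 4 largest and 2 smallest changes from 6leaf to 8leaf, genes beside a threshold, genes left out and close identifiers. Others were named after their values were seen. The 107 genes named by the study were read from its text and figures, those from figures serving only to leave genes out, with no names taken.

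Alternatives were voom with limma 3.58.1, DESeq2 1.42.0, other scalings and filters, 4 plants left out, pool as a term, a replicate block by plant number, 1 fit of every library, and 7 changes to the rule for members. The plants left out were Inland 4leaf plant 4, Coast 2leaf plant 9, and Inland bud plants 6 and 7. Inland 2leaf plant 2 was kept in that setting. Matching the 28140 identifiers to the reference table gave 0 hits, so no sequences or gene names were taken from it. Nothing states whether plants of a group came from separate families, so p-values measure the spread between plants of a line.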

Additional observations from a re-analysis of the deposited data

Results flagged for a closer look

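Among the named members, 6 changed differently in the 2 lines between 2leaf and 4leaf by the edgeR test of that difference, although the rule for members used both stages. The log2 difference of Inland minus Coast was 3.52 for Migut.G01141, 2.46 for Migut.G01102, 1.67 for Migut.B01213, 1.65 for Migut.H01053, -0.75 for Migut.E00333 and -3.00 for Migut.H00589.

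A plant stood far from the other 9 of its group in 17 of the 137 groups of values examined, by the gap to the nearest plant over the range. Chance flags about 1 in 20 groups where values follow a normal spread. Levels of genes were compared as CPM, whose spread was not tested for this, so the 17 are a description. Inland 2leaf plant 2 was low over the members as a whole, with a median log2 deviation of -0.41 from the group, beside -0.08 for the next plant. It also held the low value of Migut.E00442 (138 CPM).

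In Inland leaves the high plants were plant 10 at 2leaf for Migut.N00163 (246 CPM), plant 1 at 2leaf for Migut.H01925 (84.1 CPM), plant 1 at 4leaf for Migut.H00589 (53.8 CPM) and Migut.B01212 (445 CPM), and plant 8 at 4leaf for Migut.H00655 (20.3 CPM). In Inland buds it was plant 7 for Migut.H00589 (23 CPM). Migut.B01212 had 176 CPM in the next highest 4leaf plant.

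In Coast leaves they were plant 8 at 2leaf for Migut.B01213 (57.4 CPM), plant 3 at 2leaf for Migut.C00401 (81.2 CPM), plant 6 at 4leaf and plant 10 at 6leaf for Migut.I01133 (127 and 200.1 CPM), plant 1 at 8leaf for Migut.J01809 (359 CPM) and Migut.E00442 (49.3 CPM), and plant 8 at 8leaf for Migut.C00401 (21.8 CPM). In Coast buds they were plant 10 for Migut.J01809 (557 CPM) and plant 2 for Migut.B01213 (119 CPM).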

How the results depend on the processing

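The number of members was 76, and 44 with a bud ratio from 0.67 to 1.5. The other changes to the rule gave 66 to 87 genes, of which 57 to 76 were among the members. With TMM-scaled CPM there were 87 genes, 71 of them members. Medians over plants gave 66 genes, 57 of them members. Of 223 alternative counts, 212 stayed within 1.5 times. With library size alone the members lower in Coast buds were 5 against 2leaf and 2 against 4leaf, those that fell in Inland leaves between 2leaf and 4leaf were 1, and those higher at 8leaf than at 2leaf in Coast plants were 19. That setting also moved the median LFC of bud minus 2leaf to -1.29 in Inland and 1.92 in Coast plants, of bud minus 4leaf to -1.43 and 1.76, of Coast bud minus 8leaf to 1.93, and reversed that of Coast 8leaf minus 2leaf to 0.25. It gave 0.29 for Migut.J01809 (Inland bud minus 2leaf) and 0.13 for Migut.H01925 (Inland bud minus 4leaf), the reverse of the main sign. Of the members called lower in Inland buds than at 4leaf, 3 had the other sign in that setting (Migut.H01925, Migut.L00495 and Migut.N01489). The median LFC of that setting over all genes shows the shift it makes. With voom and limma, 7 members fell in Inland and 4 in Coast leaves between 2leaf and 4leaf, 2 had a higher Inland change, and 1 was higher at 8leaf than at 6leaf. With DESeq2, and with pool as a term, 8 members had a lower Inland change. The cause was not tested for these 3 settings.

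Plant numbers did not pair the samples. Over 280 pairs of libraries with the same number the correlation of deviations ran from -0.41 to 0.35, and 36 were over 0.1. With the number as a replicate block, 65 members were lower and 9 higher in Inland buds than at 2leaf, and 10 and 42 in Coast buds, and no count of member calls moved by over 1.5 times.

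Depth limits members with few counts outside Inland leaves, and 22 were not tested in the coastal fit.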
